A study of Mus musculus with 49 samples.

Results

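The change in mouse kidney gene expression between 24 and 48 hours after ischemia/reperfusion injury (IRI) was measured directly, as the IRI48h libraries against the IRI24h libraries with sham kidneys left out of the contrast. Each group held 3 libraries, so that 6 of the 49 libraries of the series carried the comparison, and 14895 of the 43309 genes in the deposited table were tested because they reached 1 FPKM (read fragments scaled to the length of the gene and the depth of the library) in at least 3 of the 49 libraries. All 6 libraries came from male C57BL/6NCrl mice, 10 to 12 weeks old, whose kidneys were both made ischemic by closing the renal vessels for 21 min. IRI48h kidneys were collected 48 h and IRI24h kidneys 24 h after that operation, each library was made from poly(A) RNA of whole kidney, and the libraries of a group were biological replicates. SHAM4h and SHAM24h kidneys, collected 4 h and 24 h after an operation without clamping, and IRI72h kidneys, collected at 72 h, are given beside some results. All mice were anaesthetized with ketamine and xylazine for the operation, the sources used here name no engineered allele, and the model is limited to 1 strain, 1 sex and a bilateral injury. Means are given ± SD over the 3 libraries of a group.

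Sequencing depth, recovered from the size of the smallest steps in the deposited values, was about 44400000 to 48800000 reads in IRI48h libraries and 46100000 to 52100000 reads in IRI24h libraries, and at least 94.4% of low values fell within 0.1 of a whole read count. Each of the 6 libraries was most similar to another library of its own group. In whole kidney, fewer cells of a type and less RNA per cell cannot be told apart. The kidney was recognizable from its defining transcripts, with a mean of 13192 ± 2062 FPKM of Kap, an androgen-regulated proximal tubule gene, in IRI48h kidneys and 15139 ± 1620 FPKM in IRI24h kidneys, and 1236 ± 104 FPKM of Umod, the uromodulin gene of the thick ascending limb, in IRI48h kidneys against 991 ± 119.5 FPKM in IRI24h kidneys. Genes of adipose tissue, which surrounds the kidney, varied between libraries of both groups, with a summed level of 37.0, 101.0 and 39.3 FPKM in the IRI48h libraries and 188.2, 19.6 and 748.3 FPKM in the IRI24h libraries. None of the 9 measured adipose genes passed, their median log2 change was -2.47, and 6 were lower without IRI24h replicate 2, and the part of this tissue in other results was not tested.

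Ischemia kills and strips tubule cells, above all those of the proximal tubule, and the surviving epithelial cells spread, re-enter the cell cycle and refill the tubule. A cell that enters the cycle first makes proteins, nucleotides and replication factors, then copies its DNA in S phase, and only afterwards transcribes the cyclins, kinases and spindle proteins of mitosis. The proximal tubule also loses and regains its work, which includes making glucose, burning fatty acids and reabsorbing solutes, while leukocytes and interstitial fibroblasts respond around it.

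Of the 14895 genes tested, 1174 (7.88%) were higher and 2547 (17.1%) were lower at 48 h than at 24 h with a limma adjusted p under 0.05, which makes 3721 genes (25.0%) in either direction. Among the genes that passed, 424 were at least 2-fold higher and 481 at least 2-fold lower, and the median size of the change on the log2(FPKM + 0.1) scale was 0.67. The median log2 change of all genes tested was -0.14, and the balance of directions depended on scaling. Higher genes made up 31.6% of the calls with the deposited scaling and 49.3% (1628 higher and 1675 lower) after quantile normalization, which moved the median of all genes to -0.03. Every IRI48h library lay above every IRI24h library for 2285 genes (15.3%) and below them for 5175 genes (34.7%).

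**Figure D1:**
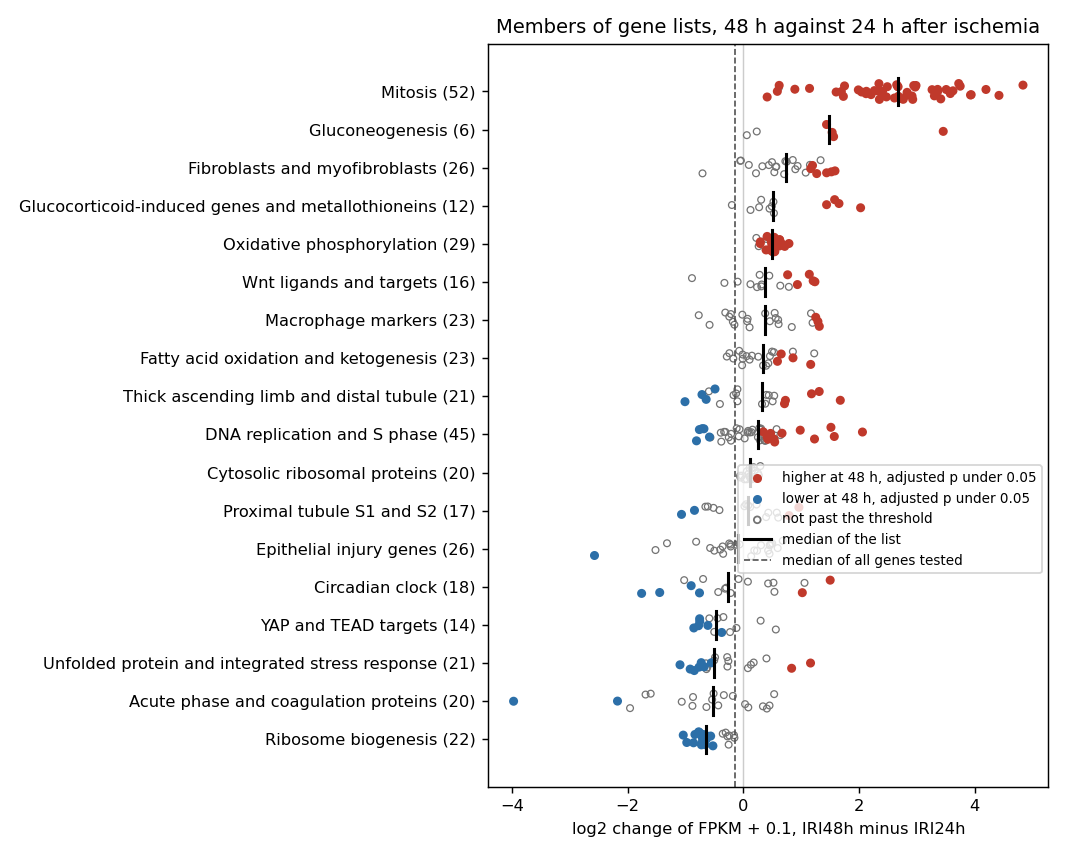
Log2 change of FPKM + 0.1, IRI48h minus IRI24h, for each measured member (point) of 18 gene lists, with the number of members tested in brackets. Filled points passed a limma adjusted p under 0.05, short black lines are list medians and the dashed line is the median of all genes tested (-0.14). The mitosis list stands farthest to the right with a median of 2.67, and the ribosome biogenesis list farthest to the left with a median of -0.65.

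Mitotic transcripts were higher in every IRI48h library. Of 52 measured genes on a textbook mitosis list, 51 were higher at 48 h and 0 were lower (median log2 change 2.67, against -0.14 over all genes tested), beside 7.88% higher among all genes, and in all 52 every IRI48h library lay above every IRI24h library, beside 15.3% of all genes. Removing any 1 of the 6 libraries left 48 to 50 of the 52 called, and quantile normalization called all 52. The exception was Smc4, a condensin subunit, with a log2 change of 0.61 that did not pass.

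The promoters of 5 of these genes are shown because the members moved together and mitotic promoters are known for a shared layout. The CCAAT box is bound by NF-Y, and the TTTGAA hexamer is the core of the cell cycle genes homology region, through which the DREAM and B-MYB-MuvB complexes act. RefSeq promoter windows (GRCm38.p6, 250 bases before to 50 bases after each start) were found for 40 of the 52 genes, as 42 windows. The motifs were searched on both strands and can share an end letter. CCAAT was present in 32 windows (76.2%), against 37.4% of all 32851 windows in the table. TTTGAA was present in 30 windows (71.4%), against 17.9% of all windows, and both motifs in 27 (64.3%), against 6.95%. The 5 windows printed here belong to the mitotic kinase Cdk1, its 2 B-type cyclins, the polo kinase Plk1 and the anaphase activator Cdc20, with the matches to either motif or its reverse complement in capitals. A match here is a string of letters and not a measured binding site.
Ccnb1, chr13:100786437-100786736, minus strand: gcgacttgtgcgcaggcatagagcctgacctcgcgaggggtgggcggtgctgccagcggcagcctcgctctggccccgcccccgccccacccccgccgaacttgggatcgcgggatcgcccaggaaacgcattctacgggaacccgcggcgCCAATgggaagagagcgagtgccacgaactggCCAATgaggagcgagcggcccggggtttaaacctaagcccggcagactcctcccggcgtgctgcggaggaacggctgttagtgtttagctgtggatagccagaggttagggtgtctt
Ccnb2, chr9:70421505-70421804, minus strand: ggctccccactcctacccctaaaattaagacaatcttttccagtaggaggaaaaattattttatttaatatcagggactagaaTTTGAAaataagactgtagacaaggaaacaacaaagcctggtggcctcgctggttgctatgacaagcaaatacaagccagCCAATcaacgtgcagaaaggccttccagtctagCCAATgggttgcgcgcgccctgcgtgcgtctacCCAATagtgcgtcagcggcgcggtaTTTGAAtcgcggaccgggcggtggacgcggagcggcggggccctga
Cdk1, chr10:69352863-69353162, minus strand: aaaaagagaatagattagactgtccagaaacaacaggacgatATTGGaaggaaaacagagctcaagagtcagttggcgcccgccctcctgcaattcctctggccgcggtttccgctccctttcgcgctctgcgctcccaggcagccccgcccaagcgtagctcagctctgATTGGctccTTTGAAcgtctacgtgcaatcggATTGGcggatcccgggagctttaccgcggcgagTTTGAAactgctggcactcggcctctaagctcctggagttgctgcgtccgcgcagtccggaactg
Plk1, chr7:122159185-122159484, plus strand: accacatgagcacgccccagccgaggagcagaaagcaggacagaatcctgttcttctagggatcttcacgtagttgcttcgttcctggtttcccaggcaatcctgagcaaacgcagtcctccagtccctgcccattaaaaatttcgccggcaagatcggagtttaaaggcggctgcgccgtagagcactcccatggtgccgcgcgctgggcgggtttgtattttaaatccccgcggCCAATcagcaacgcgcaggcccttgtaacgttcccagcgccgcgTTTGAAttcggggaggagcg
Cdc20, chr4:118437294-118437593, minus strand: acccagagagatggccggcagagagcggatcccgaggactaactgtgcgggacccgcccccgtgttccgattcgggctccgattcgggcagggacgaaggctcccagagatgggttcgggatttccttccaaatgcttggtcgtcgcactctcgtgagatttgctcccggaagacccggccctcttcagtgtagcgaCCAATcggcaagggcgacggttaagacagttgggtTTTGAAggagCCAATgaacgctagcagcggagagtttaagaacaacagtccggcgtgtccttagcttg
The Ccnb1 window held 2 CCAAT boxes and no hexamer, whereas those of Ccnb2 and Cdk1 held 3 boxes and 2 hexamers each. The Plk1 window held 1 box and 1 hexamer, and the Cdc20 window 2 boxes and 1 hexamer.

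Ccnb2, which encodes cyclin B2, had the largest log2 change among the protein-coding genes that passed, exceeded 5 FPKM in a group mean and did not overlap between the groups. It stood at 28.2, 41.0 and 22.0 FPKM in the IRI48h libraries, against 0.827, 1.07 and 0.921 FPKM in the IRI24h libraries (log2 change 4.83, SE 0.41, limma adjusted p = 1.39e-10). Cyclin B1, whose gene is Ccnb1, was at 21.1, 27.5 and 15.2 FPKM in IRI48h libraries and 0.970, 1.26 and 0.900 FPKM in IRI24h libraries (log2 change 4.20, SE 0.42, limma adjusted p = 3.41e-09). Their kinase partner Cdk1 was at 22.4, 30.6 and 18.0 FPKM in IRI48h libraries, against 2.84, 3.90 and 2.11 FPKM in IRI24h libraries (log2 change 2.97, SE 0.38, limma adjusted p = 4.28e-07). The second IRI48h library had the highest value and the third the lowest for each of these 3 genes, and the groups did not overlap.

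Regulators of mitotic entry and exit were also higher. Plk1 was at 21.0, 29.4 and 13.8 FPKM in IRI48h libraries, against 1.17, 1.36 and 1.20 FPKM in IRI24h libraries (log2 change 3.94, SE 0.40, limma adjusted p = 5.07e-09). The ubiquitin-conjugating enzyme of the anaphase-promoting complex, Ube2c, was at 20.3, 37.3 and 12.9 FPKM in IRI48h libraries, against 0.924, 1.05 and 0.762 FPKM in IRI24h libraries (log2 change 4.42, SE 0.45, limma adjusted p = 5.07e-09). Cdc20 was at 35.9, 61.8 and 22.2 FPKM in IRI48h libraries, against 2.10, 2.99 and 1.97 FPKM in IRI24h libraries (log2 change 3.93, SE 0.39, limma adjusted p = 3.41e-09). In SHAM24h kidneys the means were 0.327 ± 0.0704 FPKM of Plk1, 0.242 ± 0.0967 FPKM of Ube2c and 0.849 ± 0.226 FPKM of Cdc20, below every IRI24h library. SHAM4h means were 0.596 (highest 0.658) FPKM of Plk1, 0.732 (highest 0.939) of Ube2c and 1.66 (highest 1.98) of Cdc20. SHAM4h libraries thus reached the IRI24h range for Ube2c and Cdc20 but not for Plk1. For Ccnb2 the SHAM4h mean, 1.315 FPKM, was above the IRI24h mean of 0.940 FPKM. Across the mitosis list, median log2 differences from SHAM24h were 0.19 to 0.72 in SHAM4h and 1.24 to 1.78 in IRI24h libraries.

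Genes of the spindle and chromosomes were higher too. Log2 changes were 4.18 for Cdca3, a trigger of mitotic entry, 4.13 for the phosphatase gene Cdkn3, 3.75 for the spindle gene Hmmr, 3.72 for the microtubule depolymerase Kif2c, 3.51 for the centromeric histone Cenpa and 3.41 for Prc1 of the midzone, with SEs of 0.32 to 0.51. The kinase gene Pbk (3.62) and Fam64a (3.66) were also among the 15 largest increases, which held G6pc and Penk beside these genes. Penk, the proenkephalin gene, was at 7.56, 10.6 and 4.65 FPKM in IRI48h libraries and 0.326, 0.435 and 1.40 FPKM in IRI24h libraries (log2 change 3.38, SE 0.45, limma adjusted p = 9.51e-07). General proliferation markers had smaller log2 changes than the B-type cyclins, a difference between genes that was not tested. Mki67, the Ki-67 antigen gene, was at 8.49, 11.04 and 7.19 FPKM in IRI48h libraries and 1.17, 1.95 and 0.982 FPKM in IRI24h libraries (log2 change 2.65, SE 0.45, limma adjusted p = 3.35e-05). Top2a, the topoisomerase that untangles sister chromatids, was at 19.2, 20.7 and 16.4 FPKM in IRI48h libraries and 3.04, 4.48 and 2.59 FPKM in IRI24h libraries (log2 change 2.47, SE 0.45, limma adjusted p = 0.000106).

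**Figure D2:**
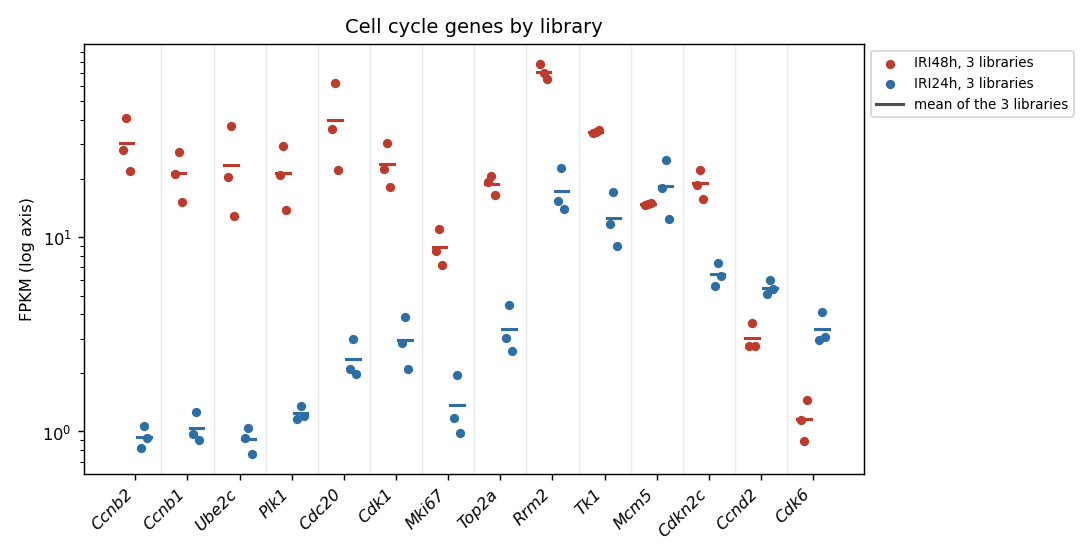
FPKM on a log axis for 14 cell cycle genes in the 3 IRI48h libraries (red, left of each gene) and the 3 IRI24h libraries (blue, right), with the mean of each group as a short line. Ccnb2, Ccnb1, Ube2c, Plk1 and Cdc20 on the left do not overlap between the groups, Mcm5 overlaps between the groups, and Ccnd2 and Cdk6 are lower at 48 h.

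Genes of DNA replication did not move together between 24 and 48 h. Of 45 measured replication and S phase genes, 12 were higher (7 without IRI24h replicate 3) and 5 were lower at 48 h. Their median log2 change was 0.25. Among all genes 7.88% were higher and 17.1% lower, so the lower calls of the list were below the share of all genes. Quantile normalization gave 17 higher and 3 lower, and removal of the trend over gene length 15 higher and 3 lower. The 5 lower genes were Mcm2 (-0.68), Mcm4 (-0.59), the licensing factor gene Cdt1 (-0.71), the polymerase delta gene Pold1 (-0.76) and the uracil glycosylase gene Ung (-0.81), and only 1 or 2 of them passed without IRI24h replicate 1, IRI24h replicate 2, IRI48h replicate 1 or IRI48h replicate 3. Mcm5, a helicase subunit, was at 14.7, 14.8 and 15.0 FPKM in IRI48h libraries and 18.0, 24.9 and 12.3 FPKM in IRI24h libraries, which overlapped (log2 change -0.25, SE 0.27, limma adjusted p = 0.536). Rrm2, the ribonucleotide reductase subunit whose supply limits nucleotide synthesis, was the largest increase of the list at 78.2, 70.2 and 65.0 FPKM in IRI48h libraries and 15.4, 22.7 and 13.9 FPKM in IRI24h libraries (log2 change 2.06, SE 0.30, limma adjusted p = 4.95e-06). Thymidine kinase 1, encoded by Tk1, was at 34.2, 34.6 and 35.7 FPKM in IRI48h libraries and 11.6, 17.1 and 8.97 FPKM in IRI24h libraries (log2 change 1.51, SE 0.26, limma adjusted p = 3.42e-05). E2f8, a repressor of the E2F family, and Dbf4, the activator of the Cdc7 kinase, changed by 1.57 (SE 0.37) and 1.23 (SE 0.22). In the 42 windows of 36 replication genes, CCAAT was present in 23 (54.8%), against 37.4% of all windows, and TTTGAA in 8 (19%). TTTGGCG, the E2F motif, was present in 10 (23.8%), against 1 (2.38%) of the mitosis windows. It was in 2.43% of the windows of genes tested and in 1.56% of all windows.

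Of 16 cyclins and inhibitors of G1, 3 were lower and 1 higher at 48 h, shares close to the 17.1% lower and 7.88% higher of all genes. Cdk6, a partner of the D cyclins, was at 1.14, 0.894 and 1.45 FPKM in IRI48h libraries and 2.96, 4.11 and 3.07 FPKM in IRI24h libraries (log2 change -1.47, SE 0.27, limma adjusted p = 8.94e-05). Ccnd2, cyclin D2, was at 2.74, 3.63 and 2.75 FPKM in IRI48h libraries and 5.08, 5.99 and 5.42 FPKM in IRI24h libraries (log2 change -0.84, SE 0.19, limma adjusted p = 0.0011). Cyclin D1, encoded by Ccnd1, had a log2 change of -0.67 (limma adjusted p = 0.0495 and not past the threshold without IRI48h replicates 1, 2 or 3 or IRI24h replicates 2 or 3, limma adjusted p = 0.0635 to 0.22), and missed the threshold as well with no filter on low values (limma adjusted p = 0.0814) and with the trend over gene length removed (limma adjusted p = 0.119). Cdkn2c, which encodes the p18 inhibitor of Cdk4 and Cdk6, was the gene that rose, at 18.6, 22.3 and 15.8 FPKM in IRI48h libraries and 5.64, 7.36 and 6.27 FPKM in IRI24h libraries (log2 change 1.54, SE 0.16, limma adjusted p = 9.18e-09). Cdkn1a, the p21 gene, had 77.2, 33.1 and 96.4 FPKM in IRI48h libraries and 31.4, 27.1 and 37.1 FPKM in IRI24h libraries, which overlapped and did not pass (limma adjusted p = 0.168). Myc was at 20.4, 16.5 and 13.5 FPKM in IRI48h libraries and 32.5, 24.8 and 29.7 FPKM in IRI24h libraries, lower in every IRI48h library but not past the threshold (limma adjusted p = 0.13) except when the 6 libraries were fitted alone (limma adjusted p = 0.0165).

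Genes that build ribosomes were lower at 48 h. Of 22 ribosome biogenesis genes, 15 were lower and 0 higher at 48 h (median log2 change -0.65), beside 17.1% lower among all genes, 14 were lower after quantile normalization, and 10 to 14 whichever library was left out. Nop56, a core protein of the particles that modify ribosomal RNA, was at 9.01, 9.85 and 8.24 FPKM in IRI48h libraries and 19.2, 19.3 and 17.4 FPKM in IRI24h libraries (log2 change -1.04, SE 0.17, limma adjusted p = 2.28e-05). Mybbp1a, a nucleolar protein gene, was at 22.1, 23.4 and 23.7 FPKM in IRI48h libraries and 43.4, 41.9 and 40.8 FPKM in IRI24h libraries (log2 change -0.86, SE 0.12, limma adjusted p = 9.28e-07). The largest subunit of RNA polymerase I, Polr1a, was at 5.01, 4.85 and 5.09 FPKM in IRI48h libraries and 8.37, 9.27 and 9.32 FPKM in IRI24h libraries (log2 change -0.84, SE 0.12, limma adjusted p = 1.63e-06), and the methyltransferase gene Nop2 changed by -0.98 (SE 0.16). Of the ribosomal proteins themselves, 0 of 20 cytosolic ribosomal protein genes passed in either direction (median 0.12), although quantile normalization called 2 of them lower and removal of the length trend 4 of them higher. SHAM24h kidneys had 6.76 ± 0.114 FPKM of Nop56 and 4.69 ± 0.141 FPKM of Polr1a.

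Of 19 genes of polyamine and NAD metabolism, 4 were lower (2 without IRI48h replicate 1) and 3 higher, close to the 17.1% lower of all genes, with a median log2 change of -0.05. Srm, spermidine synthase, was at 23.6, 29.4 and 20.0 FPKM in IRI48h libraries and 51.2, 50.2 and 48.3 FPKM in IRI24h libraries (log2 change -1.05, SE 0.18, limma adjusted p = 6.65e-05), and Amd1, the enzyme before it in polyamine synthesis, changed by -0.81 (SE 0.19). Of 21 genes induced by endoplasmic reticulum stress or amino acid shortage, 7 were lower and 2 higher (1 without IRI24h replicate 1, IRI48h replicate 1 or IRI48h replicate 3). Among all genes 17.1% were lower and 7.88% higher. Without IRI24h replicate 1, IRI24h replicate 2, IRI48h replicate 1 or IRI48h replicate 3, 3 of the 21 were lower, which is below 17.1%. Atf5, a transcription factor of the integrated stress response, passed whichever library was left out and was at 19.5, 25.5 and 18.8 FPKM in IRI48h libraries and 44.4, 38.5 and 32.1 FPKM in IRI24h libraries (log2 change -0.85, SE 0.23, limma adjusted p = 0.0053). In each of these genes the groups did not overlap. Of 20 hypoxia response genes, 3 were higher and 2 lower, beside 7.88% higher and 17.1% lower among all genes. P4ha1, a prolyl hydroxylase needed for collagen and induced by hypoxia, was at 13.6, 15.9 and 12.1 FPKM in IRI48h libraries and 32.3, 29.8 and 26.3 FPKM in IRI24h libraries (log2 change -1.09, SE 0.19, limma adjusted p = 5.59e-05). Ndrg1, another hypoxia-inducible gene, went the other way with 635, 549 and 620.3 FPKM in IRI48h libraries and 232, 216 and 275 FPKM in IRI24h libraries (log2 change 1.32, SE 0.26, limma adjusted p = 0.000277). Ndrg1 also differed between the sham groups, with means of 484 (lowest 435, highest 545) FPKM in SHAM4h and 216 FPKM in SHAM24h kidneys.

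Genes of glucose production were higher at 48 h. Among 6 measured gluconeogenesis genes 4 were higher and 0 lower (median log2 change 1.49), beside 7.88% higher among all genes. The count stayed at 4 whichever library was left out. G6pc, the glucose-6-phosphatase that releases glucose into the blood, was at 315, 218 and 268 FPKM in IRI48h libraries, against 26.1, 22.6 and 23.3 FPKM in IRI24h libraries (log2 change 3.46, SE 0.21, limma adjusted p = 1.58e-14). The group means were 267 ± 48.3 FPKM in IRI48h kidneys and 24.0 ± 1.82 FPKM in IRI24h kidneys. The sham groups were far apart, at 983 (lowest 843, highest 1079) FPKM in SHAM4h kidneys and 184 ± 10.9 FPKM in SHAM24h kidneys, so the IRI48h level was above the later and below the earlier sham. Fbp1, fructose-1,6-bisphosphatase, was at 626, 551 and 551 FPKM in IRI48h libraries and 189, 193 and 214 FPKM in IRI24h libraries (log2 change 1.53, SE 0.14, limma adjusted p = 6.09e-10). Pck1, the cytosolic PEP carboxykinase, was at 3171, 2133 and 4631 FPKM in IRI48h libraries and 1055, 681 and 1701 FPKM in IRI24h libraries (log2 change 1.56, SE 0.38, limma adjusted p = 0.00229), a call that quantile normalization ended (limma adjusted p = 0.0614), with 2117 (lowest 1971, highest 2267) FPKM in SHAM4h kidneys and 841 ± 279.8 FPKM in SHAM24h kidneys. Pck2, the mitochondrial form, and Pcx, pyruvate carboxylase, had log2 changes of 0.23 and 0.06 and did not pass.

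Mitochondrial energy genes also rose. Of 29 nuclear genes of oxidative phosphorylation, 25 were higher and 0 lower (median log2 change 0.50), beside 7.88% higher among all genes. All 29 had every IRI48h library above every IRI24h library, beside 15.3% of all genes. The count of higher genes was 19 after quantile normalization and 16 without IRI48h replicate 2. The 29 genes have short transcripts, with a median exon length of 2.10 kb. Short genes as a class were higher at 48 h, as described further on. With the trend over gene length removed, 27 of the 29 passed. Ndufc2, a complex I subunit gene, was at 224, 292 and 203 FPKM in IRI48h libraries and 142, 135 and 134 FPKM in IRI24h libraries (log2 change 0.79, SE 0.15, limma adjusted p = 0.00014). Sdhb, the iron-sulfur subunit gene of complex II, was at 303, 394 and 304 FPKM in IRI48h libraries and 199.6, 205 and 201 FPKM in IRI24h libraries (log2 change 0.71, SE 0.13, limma adjusted p = 8.35e-05). Only 4 of 23 genes of fatty acid oxidation and ketogenesis were higher, 2 without IRI24h replicate 2 or IRI48h replicate 1, and 0 were lower. The shares among all genes were 7.88% higher and 17.1% lower. Acaa2, the mitochondrial thiolase, was at 234, 196 and 244 FPKM in IRI48h libraries and 103, 82.1 and 117 FPKM in IRI24h libraries (log2 change 1.16, SE 0.19, limma adjusted p = 1.75e-05), and Hadh changed by 0.65 (SE 0.13). Ppara and Cpt1a, the receptor and the gatekeeper enzyme of the pathway, had log2 changes of -0.29 and 0.26 and did not pass.

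**Figure D3:**
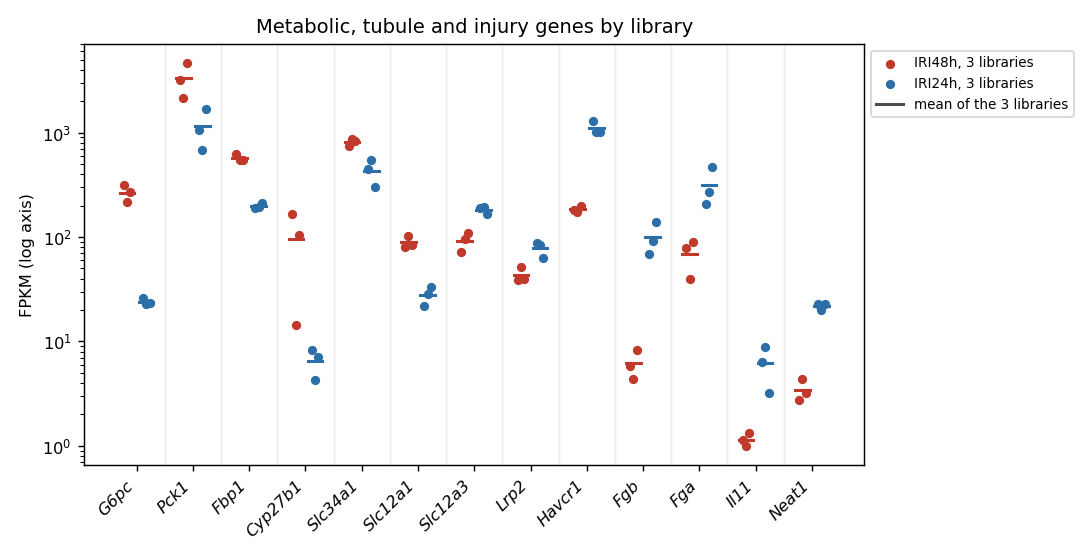
FPKM on a log axis for 13 metabolic, transport and injury genes in the 3 IRI48h libraries (red, left of each gene) and the 3 IRI24h libraries (blue, right), with group means as short lines. G6pc sits between 218 and 315 FPKM at 48 h, above 26.1 FPKM at 24 h, while Havcr1, Fgb, Fga, Il11 and Neat1 are lower in every IRI48h library.

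Slc34a1, the sodium-phosphate cotransporter of the proximal tubule, was at 749, 859.9 and 834 FPKM in IRI48h libraries and 444, 544 and 302 FPKM in IRI24h libraries (log2 change 0.96, SE 0.21, limma adjusted p = 0.000783), under the means of 1575 (lowest 1427, highest 1865) FPKM in SHAM4h kidneys and 2145 ± 89.0 FPKM in SHAM24h kidneys. Slc13a3, a dicarboxylate transporter, was at 296, 345 and 333 FPKM in IRI48h libraries and 188, 182 and 191 FPKM in IRI24h libraries (log2 change 0.79, SE 0.22, limma adjusted p = 0.00715), a call that quantile normalization ended (limma adjusted p = 0.075). Against these, Slc2a2, the basolateral glucose transporter, was at 31.8, 41.1 and 24.6 FPKM in IRI48h libraries and 75.8, 71.8 and 55.0 FPKM in IRI24h libraries (log2 change -1.07, SE 0.30, limma adjusted p = 0.00866, but not past the threshold without IRI48h replicate 3, limma adjusted p = 0.0575). Lrp2, the endocytic receptor megalin, was lower at 38.4, 51.4 and 40.0 FPKM in IRI48h libraries and 87.3, 83.6 and 63.0 FPKM in IRI24h libraries (log2 change -0.85, SE 0.27, limma adjusted p = 0.0205), and was not past the threshold without IRI48h replicates 1 or 3 or IRI24h replicates 1 or 2, limma adjusted p = 0.0619 to 0.0819. Lrp2 is a long transcript, and with the trend over gene length removed its log2 change was -0.41 (limma adjusted p = 0.274). Of 17 early proximal tubule genes, 2 were higher and 2 lower, beside 7.88% higher and 17.1% lower among all genes, with a median log2 change of 0.08, and 1 was lower without IRI24h replicate 1, IRI24h replicate 2 or IRI48h replicate 1 and 0 without IRI48h replicate 3.

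Of 33 further proximal tubule genes, 9 were higher and 3 lower, against 5 higher and 4 lower without IRI48h replicate 2 and 6 higher and 3 lower after quantile normalization. Among all genes 7.88% were higher and 17.1% lower, so the lower calls of this list were below the share of all genes. Cyp27b1, the enzyme that makes active vitamin D, was at 167, 14.5 and 106 FPKM in IRI48h libraries and 8.25, 4.31 and 7.11 FPKM in IRI24h libraries (log2 change 3.31, SE 0.58, limma adjusted p = 6.11e-05), and its second IRI48h library was far below the other 2 but above every IRI24h library. Ttc36, a tyrosine metabolism factor, was at 169.5, 220.1 and 124 FPKM in IRI48h libraries and 61.3, 83.3 and 43.9 FPKM in IRI24h libraries (log2 change 1.45, SE 0.28, limma adjusted p = 0.000251), and the peroxisomal oxidase gene Hao2 at 61.0, 45.1 and 42.6 FPKM in IRI48h libraries and 20.6, 23.0 and 13.2 FPKM in IRI24h libraries (log2 change 1.40, SE 0.32, limma adjusted p = 0.00145). Cyp2d9, a male-biased cytochrome P450, was lower at 48 h, at 1.65, 1.27 and 1.56 FPKM in IRI48h libraries, against 11.5, 6.42 and 13.3 FPKM in IRI24h libraries (log2 change -2.66, SE 0.47, limma adjusted p = 7.39e-05), with 183 ± 4.88 FPKM in SHAM24h kidneys. Cyp2d9 has close paralogs, as does Serpina1d (-2.01, and not past the threshold without IRI24h replicate 3, limma adjusted p = 0.073), and how the reads of such families were divided is not given in the sources used here. Hsd3b2 at 3.93, 7.21 and 4.21 FPKM in IRI48h libraries and 19.7, 24.0 and 9.61 FPKM in IRI24h libraries (log2 change -1.73, SE 0.33, limma adjusted p = 0.000198) and Ddo, D-aspartate oxidase, at 3.38, 7.73 and 3.35 FPKM in IRI48h libraries and 17.3, 15.0 and 11.7 FPKM in IRI24h libraries (log2 change -1.68, SE 0.33, limma adjusted p = 0.000227) were also lower, without overlap between the groups.

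The main salt transporters of the distal nephron went in opposite directions. Slc12a1, the furosemide-sensitive cotransporter of the thick ascending limb, was at 79.6, 102 and 84.5 FPKM in IRI48h libraries and 21.7, 28.6 and 33.5 FPKM in IRI24h libraries (log2 change 1.68, SE 0.31, limma adjusted p = 0.000114). Slc12a3, the thiazide-sensitive cotransporter of the distal convoluted tubule, was at 71.3, 95.7 and 109 FPKM in IRI48h libraries and 188, 196 and 165 FPKM in IRI24h libraries (log2 change -1.01, SE 0.20, limma adjusted p = 0.000402). The ranges of the groups did not meet in either gene, and the sham means were 172 (lowest 163, highest 189) FPKM of Slc12a1 and 179.8 (lowest 159, highest 214) FPKM of Slc12a3 at 4 h, and 292 ± 22.6 and 297 ± 29.9 FPKM at 24 h. Of 21 genes of the thick ascending limb and distal tubule, 5 were higher and 4 lower (2 without IRI48h replicate 1), and 7 were higher and 3 lower after quantile normalization. Among all genes 7.88% were higher and 17.1% lower, so the lower calls of this list were close to the share of all genes. Egf, the growth factor made by the distal nephron, was at 14.0, 21.0 and 13.9 FPKM in IRI48h libraries and 5.43, 6.17 and 10.3 FPKM in IRI24h libraries (log2 change 1.18, SE 0.30, limma adjusted p = 0.00422), against 370.1 ± 16.0 FPKM in SHAM24h kidneys. In intercalated cells, the proton pump subunit gene Atp6v0a4 was at 156, 107 and 168 FPKM in IRI48h libraries and 78.7, 81.4 and 81.7 FPKM in IRI24h libraries (log2 change 0.81, SE 0.19, limma adjusted p = 0.00187), while the anion exchanger gene Slc4a9 was at 9.56, 6.23 and 10.7 FPKM in IRI48h libraries and 18.2, 21.4 and 21.4 FPKM in IRI24h libraries (log2 change -1.23, SE 0.20, limma adjusted p = 2.41e-05). Aqp2, the vasopressin-regulated water channel gene, overlapped with 243, 457 and 332 FPKM in IRI48h libraries and 126, 299.6 and 232 FPKM in IRI24h libraries (limma adjusted p = 0.213).

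Of 26 epithelial injury genes, Havcr1 was lower at 48 h, 0 were higher and the other 25 did not pass, against 4 lower and 1 higher after quantile normalization and 1 lower and 2 higher with the trend over gene length removed. Havcr1, which encodes KIM-1, a phosphatidylserine receptor of injured proximal tubule, was at 180.1, 174 and 196 FPKM in IRI48h libraries, against 1286, 1017 and 1016 FPKM in IRI24h libraries, and at 0.617 ± 0.198 FPKM in SHAM24h kidneys. The groups did not overlap, yet the call (log2 change -2.58, SE 0.90, limma adjusted p = 0.0323) needed all 6 libraries and was not past the threshold with each of the 6 libraries left out in turn, limma adjusted p = 0.0622 to 0.0881, and it was lost without the filter on low values (limma adjusted p = 0.0563). The spread behind these p-values was estimated over all 16 groups. Lcn2, the lipocalin NGAL, was at 1350, 585 and 1293 FPKM in IRI48h libraries and 603, 570.3 and 1159 FPKM in IRI24h libraries (limma adjusted p = 0.754). Krt20 was at 115, 58.2 and 122 FPKM in IRI48h libraries and 149.9, 141 and 211 FPKM in IRI24h libraries (limma adjusted p = 0.517). Lcn2 thus overlapped between the groups and Krt20 did not. Spp1, osteopontin, was at 13339, 11290 and 12937 FPKM in IRI48h libraries and 17404, 15298 and 15141 FPKM in IRI24h libraries (limma adjusted p = 0.624), and passed after quantile normalization (limma adjusted p = 0.0414). The transcription factor gene Sox9 was at 8.75, 3.45 and 8.41 FPKM in IRI48h libraries and 5.54, 4.80 and 6.42 FPKM in IRI24h libraries (limma adjusted p = 0.812).

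Genes of fibrinogen, which the injured tubule transcribes beside the liver, were lower in every IRI48h library. Fgb was at 5.83, 4.38 and 8.25 FPKM in IRI48h libraries, against 68.0, 90.8 and 139 FPKM in IRI24h libraries (log2 change -3.97, SE 0.88, limma adjusted p = 0.000947), the largest decrease among genes that passed, exceeded 5 FPKM in a group mean and did not overlap. Fga was at 78.9, 39.9 and 88.7 FPKM in IRI48h libraries and 208, 268 and 465 FPKM in IRI24h libraries (log2 change -2.18, SE 0.72, limma adjusted p = 0.0231, not past the threshold without IRI48h replicate 2 or IRI24h replicates 2 or 3, limma adjusted p = 0.051 to 0.105). Fgg, the third chain, was at 89.4, 50.8 and 107 FPKM in IRI48h libraries and 183, 225 and 401 FPKM in IRI24h libraries and did not pass (limma adjusted p = 0.165). The IRI48h means were 6.16 ± 1.96 FPKM of Fgb, 69.1 ± 25.8 FPKM of Fga and 82.5 ± 28.9 FPKM of Fgg, against 99.3 ± 36.3, 314 ± 135 and 269 ± 116 FPKM in IRI24h kidneys.

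Of 20 genes of the IL-6 and interleukin 1 families, 4 were lower (2 without IRI24h replicate 1 or IRI48h replicate 1, and 2 after quantile normalization) and 1 higher (0 without IRI24h replicate 1, IRI48h replicate 1 or IRI48h replicate 3), and of 19 genes of the TGF-beta, activin and BMP families 3 were lower and 0 higher, beside 17.1% lower and 7.88% higher among all genes. Of 27 chemokine genes, 4 were higher and 0 lower, and 0 or 1 were higher without IRI24h replicate 1, IRI24h replicate 2, IRI48h replicate 1 or IRI48h replicate 3. Il11, a cytokine of the IL-6 family that acts on epithelium and stroma, was at 1.13, 0.988 and 1.32 FPKM in IRI48h libraries and 6.35, 8.87 and 3.24 FPKM in IRI24h libraries (log2 change -2.22, SE 0.52, limma adjusted p = 0.00184). Lif, of the same family, was at 1.43, 2.66 and 1.23 FPKM in IRI48h libraries and 10.2, 3.79 and 4.42 FPKM in IRI24h libraries (log2 change -1.67, SE 0.60, limma adjusted p = 0.0366, not past the threshold without IRI48h replicates 1 or 3 or IRI24h replicates 1 or 3, limma adjusted p = 0.0507 to 0.195), and quantile normalization also ended its call (limma adjusted p = 0.0722). Inhba, the activin A subunit, was at 0.354, 0.0628 and 0.364 FPKM in IRI48h libraries and 1.06, 1.55 and 0.745 FPKM in IRI24h libraries (log2 change -1.85, SE 0.42, limma adjusted p = 0.00128). All 6 values of Inhba were low, and the groups of these 3 genes did not overlap. Cldn14, the gene of a tight junction claudin that limits paracellular calcium, was at 0.307, 1.32 and 1.21 FPKM in IRI48h libraries and 6.63, 2.95 and 2.46 FPKM in IRI24h libraries (log2 change -2.04, SE 0.45, limma adjusted p = 0.000875), although a pseudocount of 0.01 ended that call (limma adjusted p = 0.0604). The receptor gene Tgfbr2 was at 35.4, 31.2 and 34.3 FPKM in IRI48h libraries and 55.3, 59.9 and 51.6 FPKM in IRI24h libraries (log2 change -0.72, SE 0.14, limma adjusted p = 0.000241). Il6 was at 0.248, 0.548 and 0.731 FPKM in IRI48h libraries and 1.29, 1.30 and 0.642 FPKM in IRI24h libraries, and Vgf, a secreted neuropeptide precursor gene, at 7.00, 6.03 and 5.22 FPKM in IRI48h libraries and 15.1, 19.1 and 12.2 FPKM in IRI24h libraries, and neither passed (limma adjusted p = 0.181 and 0.0675), although Vgf did with a pseudocount of 1 (limma adjusted p = 0.000739).

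Some genes of interstitial fibroblasts rose. Of 26 fibroblast and myofibroblast genes, 6 were higher and 0 lower (median log2 change 0.74), beside 7.88% higher and 17.1% lower among all genes. Without IRI24h replicate 1 only 2 of the 26 passed, which is close to the share of all genes. Without IRI48h replicate 1 or IRI48h replicate 3 the count was 3, and 9 passed after quantile normalization. Mmp2, a gelatinase of stromal cells, was at 5.65, 4.80 and 5.21 FPKM in IRI48h libraries and 1.57, 1.95 and 2.10 FPKM in IRI24h libraries (log2 change 1.44, SE 0.37, limma adjusted p = 0.00357) and passed whichever library was left out. Col6a1 was at 45.6, 32.7 and 55.9 FPKM in IRI48h libraries and 11.8, 15.4 and 19.1 FPKM in IRI24h libraries (log2 change 1.52, SE 0.45, limma adjusted p = 0.0112, not past the threshold without IRI48h replicate 3 or IRI24h replicate 1, limma adjusted p = 0.0525 to 0.0587). Col1a1, the main fibrillar collagen gene, was at 129, 117 and 144 FPKM in IRI48h libraries and 55.0, 83.3 and 67.7 FPKM in IRI24h libraries, and Acta2, smooth muscle actin, at 217, 156 and 211 FPKM in IRI48h libraries and 93.2, 107 and 121 FPKM in IRI24h libraries. Both were higher in every IRI48h library without passing (limma adjusted p = 0.182 and 0.0975), except when the 6 libraries were fitted alone (limma adjusted p = 0.00942 and 0.0109). The summed level of the list was 1473 to 2039 FPKM in IRI48h kidneys and 1021 to 1249 FPKM in IRI24h kidneys.

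Few leukocyte genes passed. Of 23 macrophage genes 3 were higher and 0 lower, namely Lyz2, Fcgr3 and Trem2 (log2 changes 1.29, 1.25 and 1.31), and 1 (Trem2) passed without IRI24h replicate 1, IRI24h replicate 2, IRI48h replicate 1 or IRI48h replicate 3. A pseudocount of 1 ended the call of Trem2, a receptor of lipid-handling macrophages (limma adjusted p = 0.139). All values of Trem2 were low, at 0.615 to 0.640 FPKM in IRI48h libraries and 0.189 to 0.198 FPKM in IRI24h libraries. The summed level of the 24 listed macrophage genes was 251 to 279 FPKM in IRI48h kidneys and 142 to 172 FPKM in IRI24h kidneys. Csf1r, the defining receptor of the lineage, was at 6.30, 8.29 and 6.87 FPKM in IRI48h libraries and 6.54, 7.62 and 6.29 FPKM in IRI24h libraries (limma adjusted p = 0.866). Of 11 measured genes of alternative macrophage activation, 2 were higher and 1 lower, and their median log2 change was -0.04. Among all genes 7.88% were higher and 17.1% lower. Arg1, arginase 1, which marks alternatively activated macrophages, was at 6.58, 0.766 and 11.6 FPKM in IRI48h libraries and 0.585, 0.649 and 0.359 FPKM in IRI24h libraries (log2 change 2.72, SE 0.66, limma adjusted p = 0.00227), with its lowest 48 h library just above the 24 h range, and fitting the 6 libraries alone ended the call (limma adjusted p = 0.0596). The neutrophil gene S100a8 was at 40.3, 21.1 and 72.7 FPKM in IRI48h libraries and 16.0, 23.3 and 17.2 FPKM in IRI24h libraries (limma adjusted p = 0.489), and of 14 measured neutrophil genes Mmp8 was higher and Il1b lower (limma adjusted p = 0.026 and not past the threshold without IRI48h replicates 1 or 3 or IRI24h replicates 1 or 2, limma adjusted p = 0.0726 to 0.155 for Mmp8, and limma adjusted p = 0.0272 and not past the threshold without IRI48h replicates 1 or 2 or IRI24h replicates 1 or 2, limma adjusted p = 0.058 to 0.163 for Il1b). The T and NK cell list was low throughout, at a summed 1.10 to 1.66 FPKM in IRI48h kidneys and 1.97 to 2.10 FPKM in IRI24h kidneys, and 0 of 13 measured members passed.

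Of 12 glucocorticoid-induced genes and metallothioneins, 4 were higher and 0 lower, beside 7.88% higher and 17.1% lower among all genes. Whichever library was left out, 3 or 4 passed. Tsc22d3, the glucocorticoid-induced leucine zipper gene, was at 70.3, 45.4 and 49.9 FPKM in IRI48h libraries and 14.3, 16.9 and 21.0 FPKM in IRI24h libraries (log2 change 1.65, SE 0.30, limma adjusted p = 9e-05). Sgk1, a kinase that acts on sodium channels, was at 162, 84.2 and 165 FPKM in IRI48h libraries and 42.8, 38.0 and 69.4 FPKM in IRI24h libraries (log2 change 1.44, SE 0.36, limma adjusted p = 0.00354), and the cochaperone gene Fkbp5 at 66.5, 25.6 and 86.0 FPKM in IRI48h libraries and 14.3, 18.6 and 20.5 FPKM in IRI24h libraries (log2 change 1.58, SE 0.38, limma adjusted p = 0.00234). Dusp1, a phosphatase that switches off MAP kinases and is also induced by glucocorticoids, was the 1 of 27 immediate early genes that passed, at 47.3, 30.2 and 49.1 FPKM in IRI48h libraries and 12.3, 14.6 and 13.7 FPKM in IRI24h libraries (log2 change 1.60, SE 0.28, limma adjusted p = 5.06e-05). Sham kidneys of different times also differed in these genes. SHAM4h means were 61.5 FPKM of Tsc22d3, 115.9 of Sgk1, 49.96 of Fkbp5 and 53.4 of Dusp1. In SHAM24h kidneys the means were 19.2, 27.9, 12.5 and 17.6 FPKM, in the same order. The SHAM4h mean lay within the IRI48h range for Tsc22d3, Sgk1 and Fkbp5, and above it for Dusp1. What set the sham groups apart was not tested. Fos was at 3.31, 3.36 and 3.69 FPKM in IRI48h libraries and 4.31, 2.89 and 3.08 FPKM in IRI24h libraries (limma adjusted p = 0.988).

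Among clock genes, Dbp, an output gene of the clock, was at 7.57, 9.81 and 8.07 FPKM in IRI48h libraries and 23.5, 44.3 and 23.0 FPKM in IRI24h libraries (log2 change -1.76, SE 0.45, limma adjusted p = 0.00346), and Per3 at 1.11, 0.848 and 1.64 FPKM in IRI48h libraries and 2.83, 4.34 and 3.02 FPKM in IRI24h libraries (log2 change -1.45, SE 0.34, limma adjusted p = 0.00176). Arntl, the activator BMAL1, was at 8.99, 6.22 and 8.22 FPKM in IRI48h libraries and 2.67, 1.77 and 3.99 FPKM in IRI24h libraries (limma adjusted p = 0.017, not past the threshold without IRI48h replicate 1 or IRI24h replicate 2, limma adjusted p = 0.0625 to 0.105). Of 18 clock genes, 2 were higher (0 without IRI48h replicate 1 or IRI24h replicate 2) and 4 lower (2 without IRI24h replicate 2), beside 7.88% higher and 17.1% lower among all genes. The hour of collection is not given in the sources used here, and its part in these values was not tested.

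Of 16 Wnt ligands and targets, 5 were higher and 0 lower (2 to 4 whichever library was left out), among them Dkk3, a secreted Dickkopf-family protein gene, at 15.8, 11.05 and 15.7 FPKM in IRI48h libraries and 4.89, 5.90 and 7.05 FPKM in IRI24h libraries (log2 change 1.24, SE 0.31, limma adjusted p = 0.00326), and Notum, a secreted Wnt inactivator, at 5.83, 5.55 and 6.66 FPKM in IRI48h libraries and 2.45, 2.55 and 3.04 FPKM in IRI24h libraries (log2 change 1.14, SE 0.29, limma adjusted p = 0.00364). Of 14 YAP and TEAD targets, 6 were lower and 0 higher (3 without IRI24h replicate 2 or IRI24h replicate 3), with Tead1 at 14.0, 9.55 and 14.7 FPKM in IRI48h libraries and 22.1, 22.5 and 23.8 FPKM in IRI24h libraries (log2 change -0.86, SE 0.22, limma adjusted p = 0.00389). Among all genes 7.88% were higher and 17.1% lower. The YAP and TEAD targets are long, with a median exon length of 5.51 kb, and long genes as a class were lower at 48 h. With the trend over gene length removed, 4 of the 14 were lower. Their median log2 change was -0.22 with the trend removed and -0.48 without that step.

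Outside the protein-coding genes, the long nuclear RNA Neat1, the scaffold of paraspeckles, was at 2.74, 4.38 and 3.23 FPKM in IRI48h libraries, against 22.9, 19.9 and 22.9 FPKM in IRI24h libraries (log2 change -2.65, SE 0.32, limma adjusted p = 1.68e-07), and the groups did not overlap. The sham groups differed from each other as well, with a Neat1 mean of 3.07 (lowest 2.82, highest 3.47) FPKM in SHAM4h kidneys, close to the IRI48h level, and 36.3 ± 2.44 FPKM in SHAM24h kidneys. The lincRNA gene Gm12121 was at 3.41, 1.81 and 7.17 FPKM in IRI48h libraries and 19.5, 25.3 and 21.5 FPKM in IRI24h libraries (log2 change -2.60, SE 0.35, limma adjusted p = 1.06e-06), with 2.78 (lowest 2.24, highest 3.72) FPKM in SHAM4h kidneys and 25.1 ± 4.00 FPKM in SHAM24h kidneys. The antisense gene Gm15347 changed by -2.58 (limma adjusted p = 0.00881, not past the threshold without IRI48h replicate 2, limma adjusted p = 0.172, and limma adjusted p = 0.0911 in a fit of the 6 libraries alone), and without strand information its reads cannot be told apart from those of the gene on the other strand. In the other direction, the lincRNA gene 1190002F15Rik was at 9.56, 20.4 and 6.74 FPKM in IRI48h libraries and 0.515, 0.985 and 0.777 FPKM in IRI24h libraries (log2 change 3.73, SE 0.41, limma adjusted p = 1.73e-08). Mir6236 and Gm24187, 2 short genes annotated as miRNAs that rose together, were at 271, 696 and 484 and 282, 661 and 551 FPKM in IRI48h libraries and at 72.9, 40.0 and 33.7 and 84.7, 41.5 and 40.3 FPKM in IRI24h libraries (limma adjusted p = 3.31e-06 and 2.1e-06), and libraries of poly(A) RNA do not measure mature miRNAs. Their sham groups were also far apart. Mir6236 had means of 584 FPKM in SHAM4h and 132 FPKM in SHAM24h kidneys, and Gm24187 895 and 133 FPKM.

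The direction of change was related to the length of the gene. The 13185 protein-coding genes with an exon length were divided into 5 equal classes. The shortest class (median 1.65 kb) had 16.6% higher and 7.32% lower calls, and the longest class (median 9.72 kb) had 2.77% higher and 26.8% lower calls. The median log2 change was 0.08 in the shortest class and -0.29 in the longest. As a value per library, the median deviation of the longest minus that of the shortest class was -0.01, -0.39 and 0.11 in the IRI48h libraries and 0.22, 0.34 and 0.31 in the IRI24h libraries, against -0.65 to 0.47 across the other 43 libraries. When this trend was removed from each library, a step added after the data had been seen, 1844 genes were higher and 1370 lower. Counts for mitosis (52 of 52), oxidative phosphorylation (27 of 29) and gluconeogenesis (5 of 6) were then as high or higher, and ribosome biogenesis had 10 of 22 lower. What lies behind this relation was not tested.

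**Figure D4:**
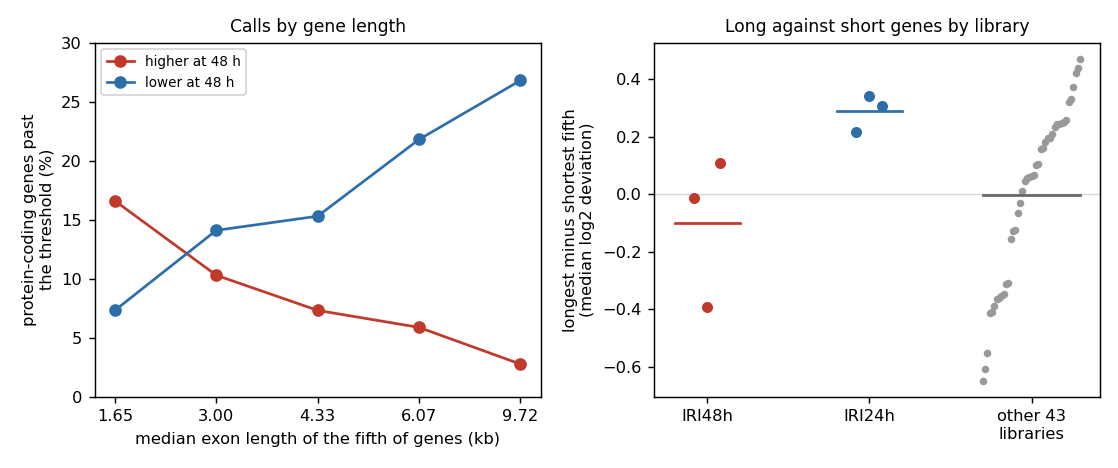
Left, percentage of protein-coding genes past a limma adjusted p under 0.05 in each of 5 classes of exon length (median in kb). Calls higher at 48 h fall to 2.77% and calls lower at 48 h reach 26.8% in the longest class. Right, median log2 deviation of the longest minus the shortest class in each library (points, the other 43 set out in order of value) with group means (lines), where all 3 IRI48h libraries lie below all 3 IRI24h libraries and all 6 lie within the range of the other 43.

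Between 48 and 72 h fewer genes passed. With the same fit, which shares the IRI48h libraries with the comparison above, 171 genes (1.15%) were higher and 259 (1.74%) lower at 72 h than at 48 h, 430 (2.89%) in either direction. The second IRI72h library stood apart, its most similar library being from the 7 day group, and without it 469 were higher and 782 lower. In a fit of these 6 libraries alone, 1 gene was higher and 0 were lower. G6pc rose again, to 844 ± 122 FPKM in IRI72h kidneys, against 267 ± 48.3 FPKM in IRI48h kidneys (log2 change 1.67, limma adjusted p = 6.76e-06). In the mitosis list 0 of 52 genes were higher and 4 lower, with a median of -0.59, and 9 of 45 replication genes were lower at 72 h, among them Tk1 (log2 change -1.27, limma adjusted p = 0.00313). Havcr1 had a mean of 249 ± 139 FPKM in IRI72h kidneys and 184 ± 11.6 FPKM in IRI48h kidneys and did not pass (limma adjusted p = 0.938).

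**Figure D5:**
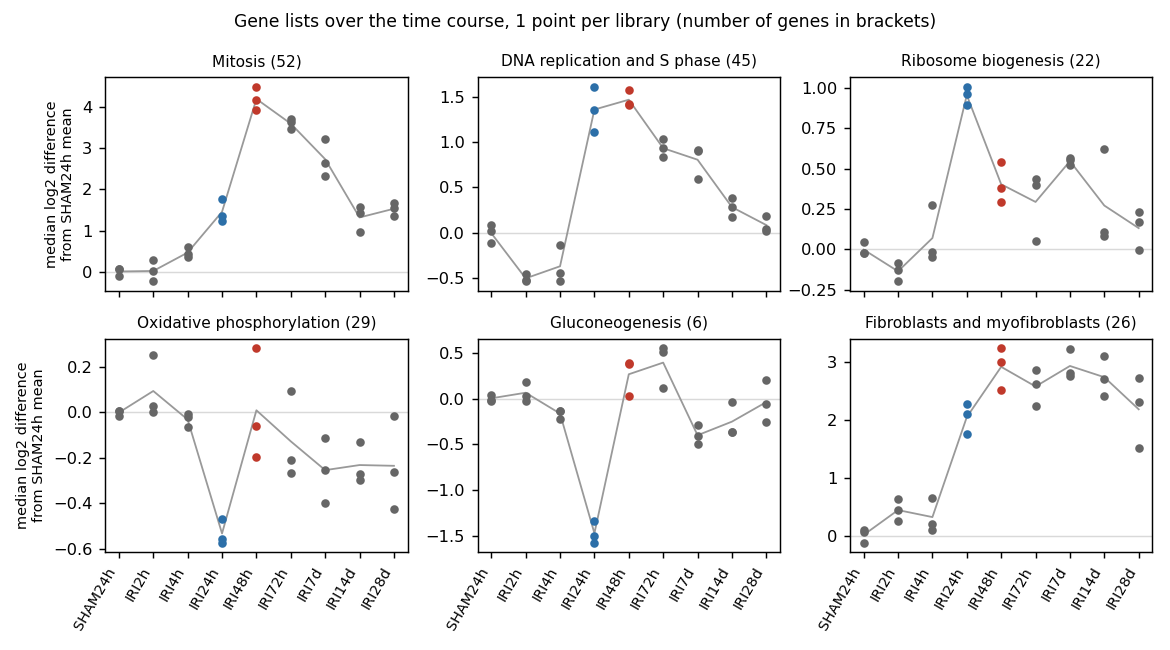
Median log2 difference from the SHAM24h mean over the members of 6 gene lists (number of genes in brackets), with 1 point for each of the 3 libraries of a group, in order of time from sham to 28 days, and a line through the group means. The mitosis list was at 1.24 to 1.78 in IRI24h libraries and peaked at 3.93 to 4.49 in IRI48h libraries, the replication list was already at 1.11 to 1.61 at 24 h, and gluconeogenesis was at -1.58 to -1.34 at 24 h and 0.03 to 0.40 at 48 h, relative to SHAM24h only.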

How the data were processed

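Whole-kidney poly(A) RNA of 49 mice was sequenced as 100-base read pairs after a library preparation that does not keep strand. The authors aligned reads with STAR 2.5.0b to mm10 with GENCODE M4 genes, removed duplicates, and deposited the values as 1 table of FPKM, and the tool that made the FPKM is not given in the sources used here. No columns of group comparisons were used. A total of 43309 genes were listed, and the 14895 with at least 1 FPKM in at least 3 libraries were tested.

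FPKM + 0.1 were set on a log2 scale and fitted with limma 3.58.1 in R 4.3.3 (1 mean for each of 16 groups, all 49 libraries, empirical Bayes with trend and robust options, Benjamini-Hochberg adjustment over all genes tested, threshold 0.05), since FPKM are not counts. The script was tested on simulated data. Exact permutation of 3 libraries against 3 cannot give a two-sided p below 0.1, so none was run. The smallest steps of the values gave depths of 44400000 to 52100000 reads in the 6 libraries, and both depth and the 3 libraries per group limit the precision.

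Genes were named by rule, as the 15 largest increases and 15 largest decreases among protein-coding genes that passed, averaged at least 5 FPKM in a group and did not overlap, up to 4 called members of each of 59 gene lists, 36 fixed marker genes, and 3 higher and 3 lower genes of other types. Smc4, Mcm2, Mcm4, Cdt1, Pold1, Ung, Fgg, Pck2, Pcx, Ppara, Cpt1a and Ehd3 were added after their values were seen. The comparison, the lists and the members were chosen with earlier results of these data known. Of 1098 list entries, 1081 matched a gene by symbol and 1006 were tested. The lists of wound repair and cell adhesion genes that the study had picked on these libraries gave 2 higher and 3 lower of 15, and 0 higher and 2 lower of 14.

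Replicate numbers did not pair the libraries, since the deviations of same-numbered IRI48h and IRI24h libraries correlated at -0.13, -0.10 and 0.12. Alternatives were quantile normalization, other pseudocounts and filters, a fit without trend, a fit of the compared groups alone, a replicate block, each library left out, and, added after seeing the data, removal of the trend over gene length in each library (Python 3.11.15). Promoter and exon annotation came from RefSeq (GRCm38.p6) and GENCODE M21. A sham library of another time point whose source field reads as ischemic was kept as sham by its title.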

Additional observations from a re-analysis of the deposited data

How the results depend on the processing

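For IRI48h against IRI24h, quantile normalization gave 1628 higher and 1675 lower genes, removal of the length trend 1844 and 1370, a fold change of at least 2 gave 424 and 481, and a fold change of at least 4 with a mean above 1 FPKM gave 113 and 42. Leaving out each library in turn gave 837 to 1015 higher and 1642 to 2111 lower. Removing the filter, filtering within the 2 groups, pseudocounts of 1 and 0.01, a fit without trend and a fit of the 2 groups alone gave 1151 to 1397 higher and 2446 to 3228 lower. A replicate block gave 1225 and 2619, and 1242 and 2465 in the 2 groups alone, although the numbers did not pair the libraries. For IRI72h against IRI48h (171 higher and 259 lower), a pseudocount of 1 gave 408 lower, the 2 groups alone 1 higher and 0 lower, the replicate block with the 2 groups alone 3 higher and 1 lower, a fold change of at least 2 gave 42 and 47, and of at least 4 with a mean above 1 FPKM 4 and 7. Leaving out 1 library there gave 103 to 469 higher and 124 to 782 lower, the highest of each without IRI72h replicate 2.

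Of 193 named genes 168 passed, 100 of these in every fit that left out 1 library and 89 under every alternative run. Direction turned in 6 genes that did not pass. Leaving out 1 library gave log2 changes of -0.040, -0.011 and up to 0.619 for Sox9, -0.046 to 0.150 for Csf1r, -0.151 to 0.076 for Pecam1 (0.143 with the length trend removed), -0.007 to 0.248 for Nphs1, -0.077, -0.032, -0.016 and up to 0.202 for Fos, and -0.053, -0.045 and up to 0.088 for Hbegf. The cause of these changes was not tested. Depth and the 3 libraries per group both limit these values, and their parts were not separated.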

Other observations

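Apln, the apelin ligand gene of vessel tip cells, was at 5.35, 5.06 and 3.57 FPKM in IRI48h libraries and 9.54, 11.8 and 6.59 FPKM in IRI24h libraries (log2 change -0.96, SE 0.24, limma adjusted p = 0.0036). Its receptor gene Aplnr was at 0.260, 0.901 and 0.252 FPKM in IRI48h libraries and 1.42, 1.09 and 0.735 FPKM in IRI24h libraries (log2 change -1.19, SE 0.43, limma adjusted p = 0.0394), and was not past the threshold without IRI48h replicates 1 or 3 or IRI24h replicates 1 or 2, limma adjusted p = 0.0988 to 0.172. Of 21 endothelial genes, 4 were lower and 1 higher, beside 17.1% lower and 7.88% higher among all genes, 2 were lower after quantile normalization, 2 were lower without IRI24h replicate 1, IRI24h replicate 2, IRI48h replicate 1 or IRI48h replicate 2, and the higher gene, Ehd3, passed without IRI48h replicate 2 and in no other fit that left out a library. The summed level of the endothelial list was 438 to 553 FPKM in IRI48h kidneys and 479.8 to 522 FPKM in IRI24h kidneys, so the ranges overlapped.

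Hipk2, a kinase gene that acts in DNA damage signalling and kidney fibrosis, was at 3.27, 1.26 and 5.54 FPKM in IRI48h libraries and 8.47, 13.4 and 11.2 FPKM in IRI24h libraries (log2 change -1.89, SE 0.46, limma adjusted p = 0.00229). Haao, an enzyme of the route from tryptophan to NAD, was at 70.0, 80.0 and 72.3 FPKM in IRI48h libraries and 33.5, 40.6 and 39.7 FPKM in IRI24h libraries (log2 change 0.97, SE 0.20, limma adjusted p = 0.000358). Of 16 factors of nephron development, 5 were lower (3 without IRI24h replicate 1) and 0 higher, beside 17.1% lower among all genes. With the trend over gene length removed, 2 of the 16 were lower. Pax2 (log2 change -0.59) was among the 5 and did not pass with that trend removed (limma adjusted p = 0.0565). Processed pseudogenes were lower in 78 and higher in 3 of 373 cases tested, which is 20.9% lower beside 17.1% of protein-coding genes, and in 43 and 6 cases after quantile normalization. Antisense genes, whose reads cannot be assigned to a strand, were lower in 56 and higher in 8 of 224 cases, and in 30 and 15 cases after quantile normalization.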
